A study of Homo sapiens with 12 samples.

Results

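The transcriptional response to SNS-032, an inhibitor of several cyclin-dependent kinases (CDKs), was compared with that to NVP-2, an inhibitor of CDK9, at the same dose and time in MOLT4 cells, an established human line of T-cell acute lymphoblastic leukemia (T-ALL). The 3 libraries of cells in 250 nM SNS-032 for 6 h were set against the 3 libraries of cells in 250 nM NVP-2 for 6 h, which are 6 of the 12 libraries of the study. Vehicle libraries (0.1% DMSO, 6 h, 3 libraries) served as the background, and 3 libraries with the SNS-032 derivative THAL-SNS-032, also at 250 nM for 6 h, entered the filter on low genes, the common median and the estimate of the spread. All groups were of the same cell line and carried no other agent. Genes were kept if they averaged at least 1 FPKM (a transcript level scaled by transcript length and library size) over the 12 libraries, which gave 11379 of 23619 gene names. The RNA was selected for poly(A) tails, and spike-in RNAs (ERCC) had been added at cell lysis.

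CDK9 pairs with a T-type cyclin, CCNT1 or CCNT2, to form P-TEFb, which releases RNA polymerase II from its pause near the promoter into productive elongation. The 7SK complex with HEXIM1 holds P-TEFb inactive, and the super elongation complex carries it to genes. When CDK9 is inhibited, short-lived transcripts such as those of MYC and MCL1 are lost first, which is why such compounds have been studied in leukemia. SNS-032 also inhibits CDK2 and CDK7, the kinase of the general factor TFIIH, whereas NVP-2 is known as a selective inhibitor of CDK9.

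Most transcripts were more abundant with SNS-032 than with NVP-2. The median tested gene stood at 3.71, 6.87 and 6.04 FPKM in the SNS-032 libraries, against 2.48, 2.94 and 2.69 FPKM in the NVP-2 libraries, and at 26.3 to 29.9 FPKM in the DMSO libraries. All 3 SNS-032 libraries lay above all 3 NVP-2 libraries, although SNS-032 replicate 1 was lower than the other SNS-032 libraries. On the log2(FPKM + 1) scale the library medians averaged 2.68 ± 0.39 with SNS-032 and 1.89 ± 0.090 with NVP-2 (SD, n = 3 each), a difference of 0.790 (exact two-sided permutation test, p = 0.1, the smallest that 3 against 3 libraries allow) and of 1.01 without SNS-032 replicate 1. Genes at 1 FPKM or more numbered 9954 ± 711 with SNS-032 and 8489 ± 232 with NVP-2. The ERCC medians did not follow the genes: they differed by -0.022 between the compounds (exact permutation p = 0.8). They lay at 0.313 to 0.458 FPKM in these 6 libraries, where the pseudocount of 1 flattens differences. How the deposited values were scaled, and whether spike-ins were used for it, is unknown, so near-equal ERCC medians may be built in. In bulk RNA, fewer cells and less RNA per cell cannot be told apart. The table gives no read counts, so the depth behind each value is unknown. Of 25 T-lineage genes that mark the cells, the summed level was 1290 to 2161 FPKM with SNS-032, 1158 to 1389 FPKM with NVP-2 and 6058 to 7425 FPKM with DMSO. The 8 B-cell markers together gave 10.6 to 19.8, 9.05 to 9.92 and 55.1 to 63.8 FPKM in the same order, with 4 of them under 0.2 FPKM in every library. The 8 myeloid markers, 3 of them under that level throughout, summed to 2.24 to 4.01 FPKM with SNS-032, 0.916 to 1.11 FPKM with NVP-2 and 1.53 to 1.75 FPKM with DMSO. Of these CD14, a monocyte surface receptor, was the 1 tested gene, and it averaged 2.08 ± 0.718 FPKM with SNS-032, against 0.305 ± 0.0615 FPKM with NVP-2 and 0.413 ± 0.0226 FPKM with DMSO (difference 1.21, adjusted p = 1.12e-05, called on both scales). The part of such markers in the results was not tested. Erythroid and fibroblast or epithelial markers summed to at most 2.06 FPKM with SNS-032, 1.32 FPKM with NVP-2 and 3.01 FPKM with DMSO.

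**Figure D1:**
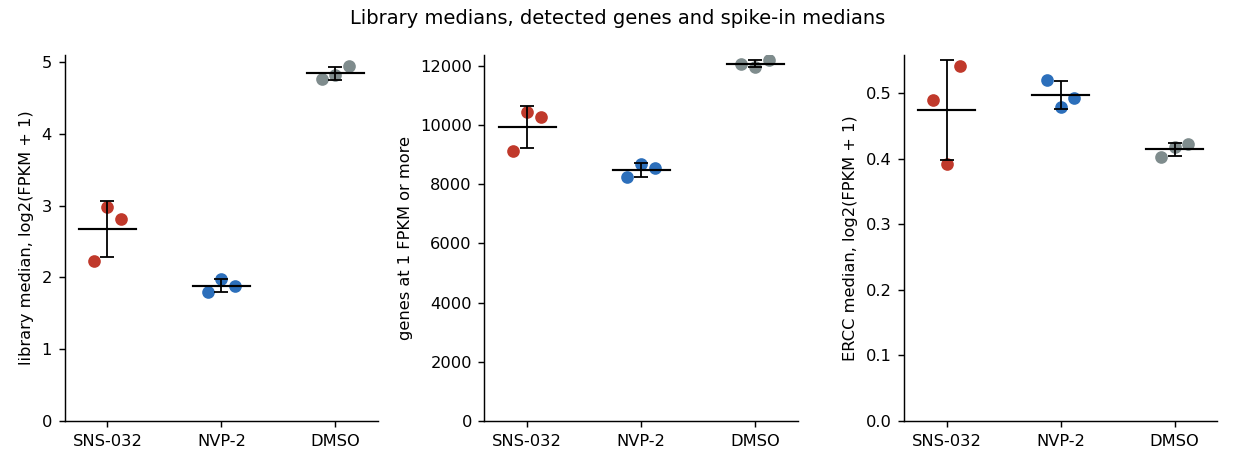
Library median on the log2(FPKM + 1) scale, number of genes at 1 FPKM or more, and median of the ERCC spike-ins, for the SNS-032, NVP-2 and DMSO libraries. Points are libraries, lines are means and bars are SD (n = 3); the SNS-032 medians (2.24 to 2.98) lie between those of NVP-2 (1.80 to 1.98) and DMSO (4.77 to 4.95), while the ERCC medians of the compounds overlap.

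Because the libraries differed in this way, each gene was compared on 2 scales: as deposited, and after the libraries were set to 1 common median. Differences are SNS-032 minus NVP-2 in mean log2(FPKM + 1), tested with limma and Benjamini-Hochberg adjustment over all 11379 genes at an adjusted p of 0.05. The pseudocount of 1 understates the difference of genes near the floor of the table. On the deposited scale 5989 genes (52.6%) were higher and 89 genes (0.782%) lower with SNS-032, and the median difference of all genes was 0.48. After centring, 3059 genes (26.9%) were higher and 6384 (56.1%) lower, with a median difference of -0.27, so the share of higher genes among those called was 98.5% on the deposited scale and 32.4% after centring. Higher on both scales were 3057 genes (26.9%), and 89 genes (0.782%) were lower on both. A further 1560 genes were higher on the deposited scale and lower after centring. Centring moved the differences downward, so the 2 scales do not support a call independently. All 89 genes lower as deposited stayed lower after centring. Of the genes higher after centring, 2 were not called as deposited. Higher genes on both scales are thus held to the centred scale, and lower genes to the deposited scale. Without SNS-032 replicate 1 the deposited scale called 9290 genes higher (81.6%) and 86 lower (0.756%), whereas the count on both scales was 3017. The lower genes numbered 56 without NVP-2 replicate 2 and 60 to 128 without any other library of the pair. On the deposited scale 6544 genes had a 95% interval wholly inside 2-fold and 1523 had one wholly above it. The libraries of the compounds did not overlap for 5401 higher genes (47.5%) and 146 lower genes (1.28%). Against DMSO, the same fit called 1.54% of genes higher and 94.6% lower with SNS-032, and 0.448% higher and 97.1% lower with NVP-2.

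**Figure D2:**
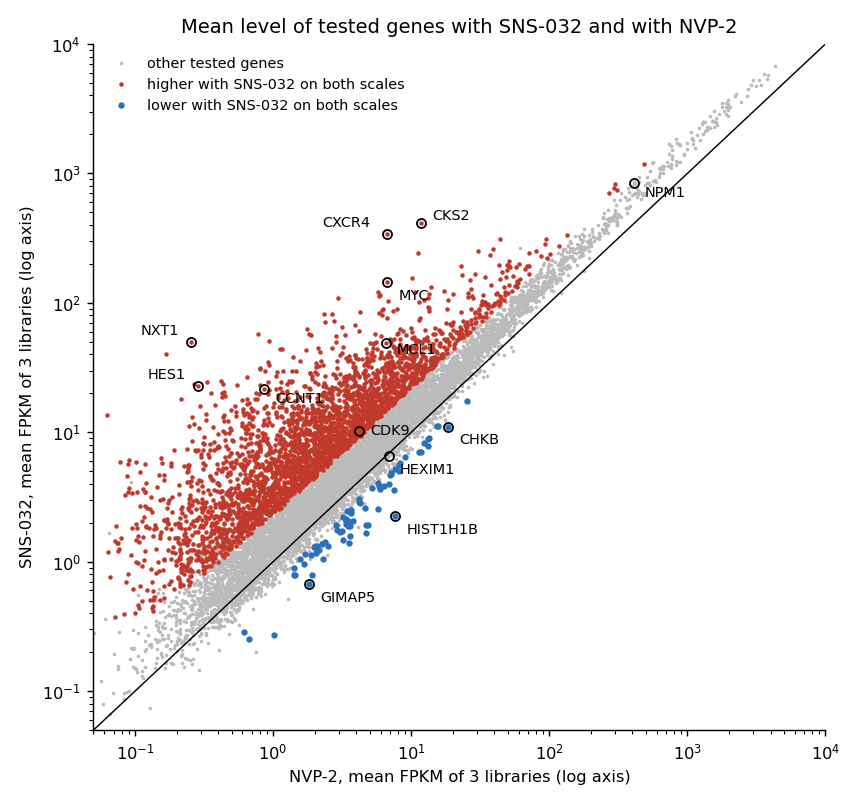
Mean FPKM of each tested gene (short RNAs left out) with SNS-032 (vertical, log axis) against NVP-2 (horizontal, log axis), 3 libraries each. Red marks the genes higher and blue those lower with SNS-032 on both scales; CXCR4, CKS2, MYC and NXT1 lie far above the line of equal levels and HIST1H1B and GIMAP5 below it.

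Within P-TEFb the cyclin subunits differed far more than the kinase. CCNT1, the main cyclin partner of CDK9, stood at 14.6, 27.2 and 23.2 FPKM in the SNS-032 libraries, against 0.788, 0.987 and 0.816 FPKM in the NVP-2 libraries. DMSO held 26.8 ± 1.49 FPKM, from which SNS-032 did not pass the test (-0.34, adjusted p = 0.0968), and every NVP-2 library held under 1 FPKM. The difference was 3.56 (SE 0.19, adjusted p = 3.19e-09) on the deposited scale and 3.12 after centring. CCNT2, the alternative cyclin, averaged 17.7 ± 5.12 FPKM with SNS-032 and 3.0 ± 0.344 FPKM with NVP-2, a difference of 2.19 (adjusted p = 2.26e-07). CDK9 itself averaged 10.2 ± 2.97 and 4.22 ± 0.374 FPKM with SNS-032 and NVP-2, and DMSO held 36.1 ± 4.16 FPKM. Its difference of 1.07 (adjusted p = 0.000276) was 0.22 after centring, and it was called on both scales.

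HEXIM1, the inhibitory partner of P-TEFb, showed no such gap. Its levels were 4.47, 7.56 and 7.55 FPKM with SNS-032 and 6.46, 7.45 and 6.77 FPKM with NVP-2, both far below the 47.9 ± 3.77 FPKM of DMSO. The ranges overlapped, the difference was -0.10 with a 95% interval of -0.47 to 0.28 (adjusted p = 0.655), or 0.12 without SNS-032 replicate 1. After centring HEXIM1 was lower with SNS-032, with a difference of -1.02 that was called. Of the 22 tested genes of P-TEFb, the 7SK proteins and the pausing factors, 10 were higher on both scales and 2 were lower on both, against backgrounds of 26.9% and 0.782%. ELL and EAF1, both tied to the super elongation complex, averaged 9.99 ± 3.41 and 10.2 ± 3.30 FPKM with SNS-032, against 1.62 ± 0.202 and 1.81 ± 0.141 FPKM with NVP-2. The lower members were MEPCE, which caps 7SK RNA (4.64 ± 1.40 FPKM with SNS-032, 7.08 ± 0.416 FPKM with NVP-2, difference -0.55, adjusted p = 0.0219), and EAF2, an ELL partner (difference -0.41, adjusted p = 0.0202). Both calls depended on single libraries: MEPCE lost its call without any one of the NVP-2 libraries (-0.51 to -0.57), and EAF2 lost it without SNS-032 replicate 2 or NVP-2 replicate 3 (-0.38 each).

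The other transcriptional CDKs differed by amounts spread around the general shift. CDK7 averaged 4.08 ± 1.38 FPKM with SNS-032 and 0.645 ± 0.0706 FPKM with NVP-2 (difference 1.59, adjusted p = 3.22e-06, and 1.18 after centring). CDK13 averaged 2.94 ± 0.991 and 1.04 ± 0.0604 FPKM in the same order (difference 0.92). CCNK, the cyclin of CDK12 and CDK13, stood at 31.9 ± 8.98 FPKM with SNS-032 and 6.94 ± 0.774 FPKM with NVP-2 (difference 2.02, adjusted p = 8.39e-07). CDK12 averaged 5.54 ± 1.75 FPKM with SNS-032 and 3.39 ± 0.198 FPKM with NVP-2; its difference was 0.54 on the deposited scale (adjusted p = 0.0211) and -0.30 after centring, and the first call was lost without SNS-032 replicate 2 (0.38) or 3 (0.45) or NVP-2 replicate 1 (0.50) or 3 (0.54). In the list of these kinases and cyclins 4 of 13 tested genes were higher on both scales and none was lower on both, near the 26.9% and 0.782% of all genes.

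Some parts of the polymerase machinery were held at high levels with SNS-032 where NVP-2 left little. GTF2B (TFIIB), which positions the polymerase at the start site, stood at 13.0, 25.2 and 22.1 FPKM with SNS-032, against 0.372, 0.472 and 0.435 FPKM with NVP-2 (difference 3.84, adjusted p = 2.43e-09). The Mediator subunits MED26 and MED18 were likewise under 0.35 FPKM in every NVP-2 library, where SNS-032 gave 9.64 to 16.2 FPKM of MED26 and 7.10 to 14.3 FPKM of MED18. MED26 averaged 13.9 ± 3.65 FPKM with SNS-032 and 14 ± 1.21 FPKM with DMSO. The TATA-binding protein gene TBP (11.7 ± 3.66 FPKM with SNS-032, 1.37 ± 0.0817 FPKM with NVP-2) and POLR2D, a small polymerase subunit (22.3 ± 7.26 and 3.66 ± 0.194 FPKM), also differed on both scales. The largest polymerase subunit did not follow: POLR2A averaged 13.0 ± 3.99 FPKM with SNS-032 and 8.26 ± 0.518 FPKM with NVP-2, a difference of 0.56 (adjusted p = 0.0305) that turned to -0.36 after centring. That call was lost without SNS-032 replicate 2 (0.39) or 3 (0.46) or NVP-2 replicate 1 (0.53) or 3 (0.54). On both scales 15 of 30 Mediator genes, 7 of 28 general factors and 3 of 12 polymerase II subunits were higher, of which the Mediator count alone exceeds the 26.9% of all genes. Of 16 elongation factor genes of the SPT6, FACT and PAF1 group 9 were, among them LEO1 and CTR9 of the PAF1 complex (differences 2.25 and 1.28) and the histone methyltransferase gene SETD2 (1.89).

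**Figure D3:**
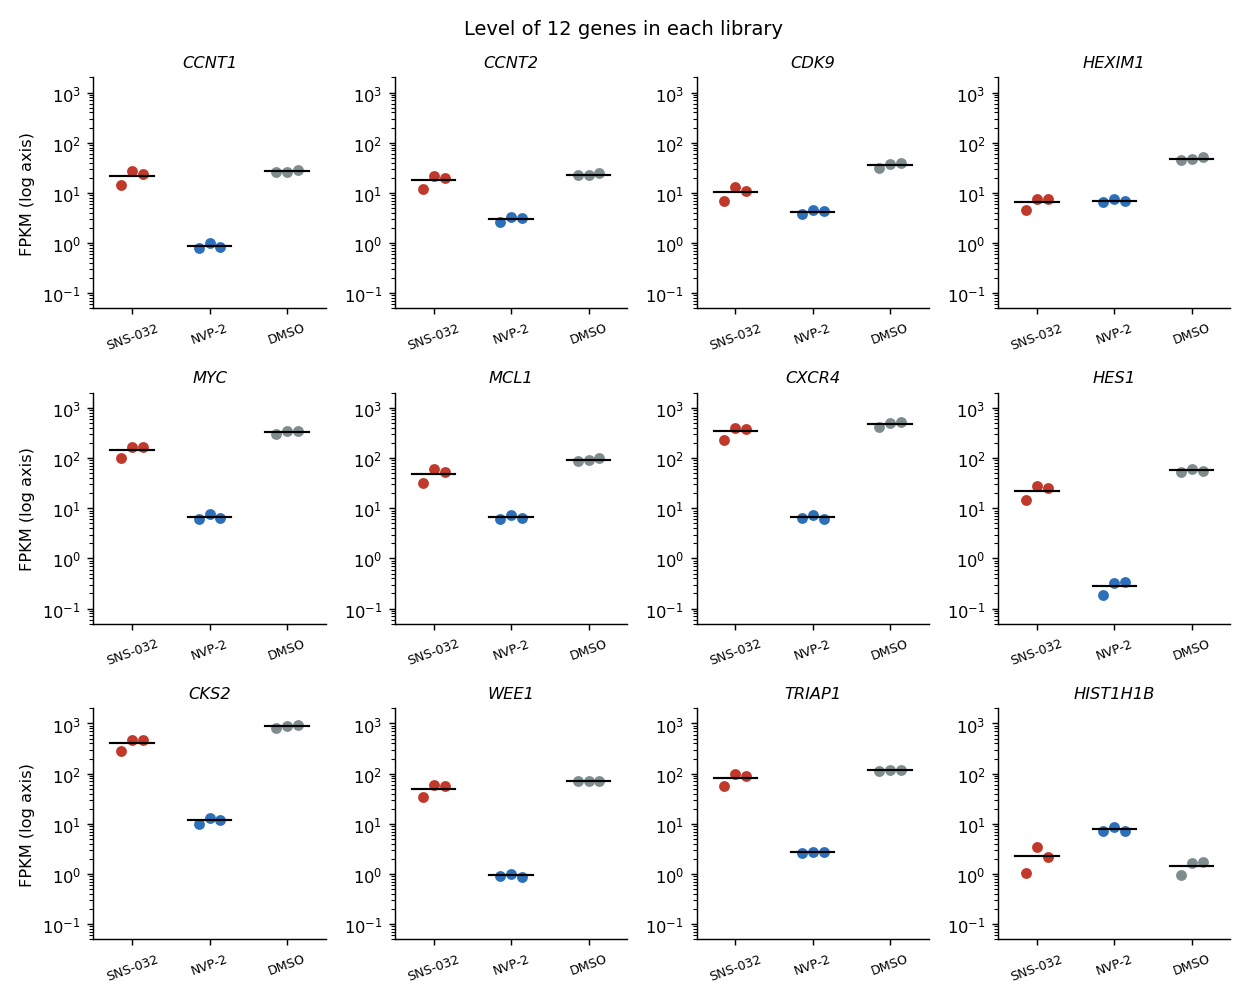
FPKM (log axis) of 12 genes in each SNS-032, NVP-2 and DMSO library; points are libraries and lines are means of 3. CCNT1, MYC, CXCR4, HES1, CKS2, WEE1 and TRIAP1 are many-fold higher with SNS-032 than with NVP-2, HEXIM1 overlaps between the compounds, and HIST1H1B is lower with SNS-032.

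Among the oncogenes of this leukemia, MYC differed most. It measured 100, 170 and 166 FPKM in the SNS-032 libraries, against 6.21, 7.57 and 6.40 FPKM in the NVP-2 libraries, and 331 ± 27.4 FPKM with DMSO. The difference was 4.21 (SE 0.20, adjusted p = 1.88e-09) and 3.33 after centring. MCL1, the short-lived survival protein of the BCL2 family, measured 31.9, 60.6 and 53.2 FPKM with SNS-032, against 6.02, 7.24 and 6.43 FPKM with NVP-2 (difference 2.67, adjusted p = 8.37e-08), with 92.9 ± 6.63 FPKM in DMSO. XIAP, a caspase inhibitor, and BIRC5 (survivin) differed less, by 0.94 and 1.24, and were called on both scales. BCL2 averaged 1.91 ± 0.633 FPKM with SNS-032 and 0.895 ± 0.0738 FPKM with NVP-2; its difference was 0.59 (adjusted p = 0.00436) as deposited and 0.028 after centring, where it was not called. Of 9 tested survival genes 7 were higher on both scales, against 26.9% of all genes. Among 8 tested death-promoting genes of the BCL2 family 4 were, including the BH3-only genes PMAIP1 (NOXA; 14.6 ± 4.49 FPKM with SNS-032, 2.31 ± 0.473 FPKM with NVP-2) and BBC3 (PUMA; 3.82 ± 1.29 and 0.253 ± 0.0430 FPKM).

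The transcription factors of the T-ALL core circuit did not move as 1 block. GATA3, a T-lineage factor, stood at 10.7, 17.6 and 18.0 FPKM with SNS-032, against 0.871, 0.794 and 0.896 FPKM with NVP-2 (difference 3.12, adjusted p = 5.94e-09). ERG and IKZF1 (Ikaros) were also higher, by 2.37 and 2.24, and TCF7, the most abundant factor of the list, by 1.36. MYB averaged 52.3 ± 16.7 FPKM with SNS-032 and 23.9 ± 1.5 FPKM with NVP-2, against 455 ± 41.8 FPKM with DMSO; its difference of 1.05 (adjusted p = 0.000789) was 0.084 after centring and not called there. TAL1, the factor the circuit is named for, averaged 2.47 ± 0.837 and 1.27 ± 0.162 FPKM with SNS-032 and NVP-2 and differed by 0.59 (adjusted p = 0.0108) as deposited and by -0.060 after centring. The TAL1 call was lost without SNS-032 replicate 2 (0.43) or NVP-2 replicate 1 (0.53). HHEX was the 1 member lower on both scales (1.23 ± 0.677 FPKM with SNS-032, 2.13 ± 0.299 FPKM with NVP-2, difference -0.53, adjusted p = 0.0212), with overlapping libraries, and its call was lost without SNS-032 replicate 1 (-0.37) or 2 (-0.44) or NVP-2 replicate 2 (-0.46) or 3 (-0.52). In this list, 8 of 18 tested factors were higher on both scales, against 26.9% of all genes.

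NOTCH1, mutated in many T-ALL, and its target genes gave different readouts. HES1, a repressor switched on directly by NOTCH1, stood at 14.6, 28.3 and 24.9 FPKM with SNS-032, against 0.191, 0.327 and 0.338 FPKM with NVP-2, and 56.7 ± 4.28 FPKM with DMSO. The difference was 4.15 (SE 0.20, adjusted p = 1.88e-09) and 4.06 after centring, close to the deposited value since the NVP-2 levels were near the floor of the table. DTX1, another NOTCH target, differed by 2.08. The receptor gene NOTCH1 averaged 13.9 ± 4.13 FPKM with SNS-032 and 9.15 ± 0.875 FPKM with NVP-2, a difference of 0.52 (adjusted p = 0.0377) that was -0.41 after centring. Leaving out SNS-032 replicate 2 (0.34) or 3 (0.47), NVP-2 replicate 1 (0.51) or 3 (0.47), or THAL-SNS-032 replicate 1 or 3 or DMSO replicate 2 (0.52 each) ended the call. In the NOTCH1 list 3 of 12 tested genes were higher on both scales, near the background.

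CXCR4, the chemokine receptor that guides leukemia cells to bone marrow, had the largest difference of any named gene on the deposited log2(FPKM + 1) scale. Its levels were 233, 403 and 388 FPKM in the SNS-032 libraries, against 6.46, 7.44 and 6.24 FPKM in the NVP-2 libraries, with 484 ± 49.6 FPKM in DMSO. The difference was 5.43 (SE 0.21, adjusted p = 5.61e-10) and 4.56 after centring, where NXT1, C12orf44 and BRIX1 differed more. Of the 24 tested T-lineage surface and receptor genes, 6 were higher on both scales, among them the adhesion receptor CD2 (11.1 ± 3.64 FPKM with SNS-032, 1.49 ± 0.0472 FPKM with NVP-2, difference 2.23). For genes of proximal T-cell receptor signalling the count was 5 of 22. Both counts are close to the 26.9% of all genes.

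The GIMAP genes, which encode GTPases of lymphocyte survival and lie side by side in the genome, split. GIMAP7 stood at 41.5, 78.0 and 69.6 FPKM with SNS-032, against 1.59, 1.89 and 1.82 FPKM with NVP-2 (difference 4.49, adjusted p = 1.38e-09). GIMAP5 ran the other way at 0.684, 0.386 and 0.957 FPKM with SNS-032, against 1.74, 2.08 and 1.67 FPKM with NVP-2 (difference -0.77, adjusted p = 0.00212). DMSO held 234 ± 25.4 FPKM of GIMAP7 and 94.3 ± 9.40 FPKM of GIMAP5. Of the 7 tested members 6 were higher and GIMAP5 alone was lower on both scales, against 26.9% and 0.782% of all genes. The higher count was 5 without SNS-032 replicate 1 or without NVP-2 replicate 1. A readthrough transcript joins GIMAP1 and GIMAP5, so their reads may be split between entries.

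The promoters of HES1 and CXCR4 are shown because these genes were among those with the largest differences. Each run gives the 250 bases before the start of transcription from RefSeq (GRCh38.p14), 5′ to 3′ on the strand of the gene, with CCAAT and TATAAA on either strand in capitals. HES1 lies at chr3:194135898-194136147 (plus strand), and the most upstream of 3 listed starts of CXCR4 gives chr2:136118150-136118399 (minus strand).
HES1 promoter: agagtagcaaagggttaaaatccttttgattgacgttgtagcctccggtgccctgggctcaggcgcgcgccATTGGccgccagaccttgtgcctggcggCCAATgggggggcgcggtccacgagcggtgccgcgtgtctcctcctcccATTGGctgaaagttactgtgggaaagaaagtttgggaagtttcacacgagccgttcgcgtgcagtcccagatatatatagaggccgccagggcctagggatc
CXCR4 promoter: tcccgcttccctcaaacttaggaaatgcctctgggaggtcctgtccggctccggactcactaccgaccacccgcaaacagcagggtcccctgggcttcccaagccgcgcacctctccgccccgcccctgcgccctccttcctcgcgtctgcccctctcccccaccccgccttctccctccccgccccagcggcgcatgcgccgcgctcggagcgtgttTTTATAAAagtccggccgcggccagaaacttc
HES1 held 3 CCAAT matches, 179, 151 and 102 bases before the start, and no TATAAA. CXCR4 held TATAAA on both strands, overlapping, 32 and 30 bases before the start. Over the 2486 genes higher on both scales that had a promoter in the table (of 3057), 4.87% held TATAAA, 38.5% CCAAT and 67.1% GGGCGG, the motif of SP1-type factors. The shares over the 8852 tested genes with a promoter were 5.05%, 36.5% and 67.4%.

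By the GENCODE release 29 annotation, the 301 genes (short RNAs left out) that were higher on both scales by at least 2 on the log2 scale spanned a median of 16.3 kb with 5 exons in the longest transcript, against 30.0 kb and 9 exons over the tested genes; 281 and 10196 of them had a match. All genes higher on both scales had medians of 28.9 kb and 7 exons. The 77 genes lower on both scales (short RNAs left out, 73 matched) spanned less, a median of 11.8 kb, with 10 exons. Replication-dependent histone genes, described below, made up 10 of these 77 genes, and medians without them were not computed. Of the 73 matched genes 12 (16.4%) had a single exon, against 3.21% of the tested genes. The median DMSO level was 42.3 FPKM for the 301 genes, against 28.1 FPKM over the tested genes. These medians are a description and were not tested.

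Most mitotic genes were higher with SNS-032. CKS2, a small subunit that binds CDKs, stood at 281, 478 and 472 FPKM with SNS-032, against 10.1, 13.3 and 12 FPKM with NVP-2 (difference 4.97, adjusted p = 7.17e-10), and 889 ± 58.1 FPKM with DMSO. WEE1, the kinase that restrains CDK1 before mitosis, stood at 34.5, 59.4 and 57.0 FPKM with SNS-032, against 0.920, 1.02 and 0.884 FPKM with NVP-2 (difference 4.69). FBXO5 (EMI1), an inhibitor of the anaphase-promoting complex, averaged 81.8 ± 23.5 and 2.35 ± 0.136 FPKM in the same order and 93.1 ± 6.65 FPKM with DMSO. CCNB1, the mitotic cyclin, and PLK1, a mitotic kinase, were higher by 4.04 and 3.58. Of 38 tested G2/M and mitosis genes, 29 were higher on both scales and none was lower, against 26.9% of all genes. Their median difference was 1.51 as deposited and 0.56 after centring, where all genes had 0.48 and -0.27.

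Cyclins, cell cycle CDKs and their inhibitors followed, with 11 of 15 tested genes higher on both scales and a median difference of 2.16. The inhibitor genes CDKN1B (p27) and CDKN2D (p19) averaged 28.8 ± 8.06 and 75.7 ± 22.2 FPKM with SNS-032, against 1.86 ± 0.190 and 6.73 ± 1.09 FPKM with NVP-2. CDKN2D with SNS-032 exceeded its level in DMSO (49.6 ± 3.35 FPKM; SNS-032 minus DMSO 0.56, adjusted p = 0.0195). CDK6 and CCND3, the most abundant members, were higher by 2.13 and 2.16. CDK2, a direct target of SNS-032, averaged 44.9 ± 12.9 FPKM with SNS-032 and 31.1 ± 2.88 FPKM with NVP-2. That difference of 0.48, with a 95% interval of 0.04 to 0.91, missed the threshold (adjusted p = 0.0607); leaving out SNS-032 replicate 1 gave 0.73, and centring gave -0.50, both called. With other limma settings its adjusted p fell on either side of the threshold. In the G1/S and replication list 13 of 42 genes were higher on both scales, near the 26.9% of all genes, led by FEN1 (3.44) and PCNA (2.96). The list median was 0.61 as deposited and -0.35 after centring. RRM2, a subunit of ribonucleotide reductase, was lower at 12.4, 19.8 and 20.3 FPKM with SNS-032, against 24.1, 27.4 and 25.1 FPKM with NVP-2 (difference -0.55, adjusted p = 0.0199), a call lost without NVP-2 replicate 2 (-0.50) or 3 (-0.56).

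Targets of the tumour suppressor p53 were the list with the highest median after centring (1.29, and 1.71 as deposited). Of 25 tested members 21 were higher on both scales and none was lower, against 26.9% and 0.782% of all genes. TRIAP1, which guards cells from apoptosis, stood at 57.3, 99.3 and 91.3 FPKM with SNS-032, against 2.58, 2.79 and 2.68 FPKM with NVP-2 (difference 4.47, adjusted p = 1.14e-09). PPM1D (WIP1), a phosphatase that switches p53 off, stood at 13.2, 24.8 and 21.8 FPKM with SNS-032, against 0.333, 0.342 and 0.398 FPKM with NVP-2 (difference 3.90), and at 17.8 ± 1.56 FPKM with DMSO. SESN1, a sestrin, averaged 24.6 ± 7.23 and 0.924 ± 0.175 FPKM in the same order and 15.1 ± 0.797 FPKM with DMSO. SNS-032 held SESN1 above DMSO (0.63, adjusted p = 0.00590) and BBC3 too (1.25, adjusted p = 4.62e-06, with 0.994 ± 0.360 FPKM in DMSO), where NVP-2 held both below DMSO. Most of the list lay below DMSO with SNS-032 as well (median -1.37). There 5 of the 25 tested members were higher and 16 lower, against 1.54% and 94.6% of all genes. GADD45A, a growth arrest gene, was higher than with NVP-2 by 3.64. CDKN1A (p21) and MDM2, the ubiquitin ligase of p53, which were picked after their values were seen, averaged 1.56 ± 0.369 and 14.7 ± 4.81 FPKM with SNS-032, against 0.114 ± 0.0455 and 2.95 ± 0.243 FPKM with NVP-2.

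**Figure D4:**
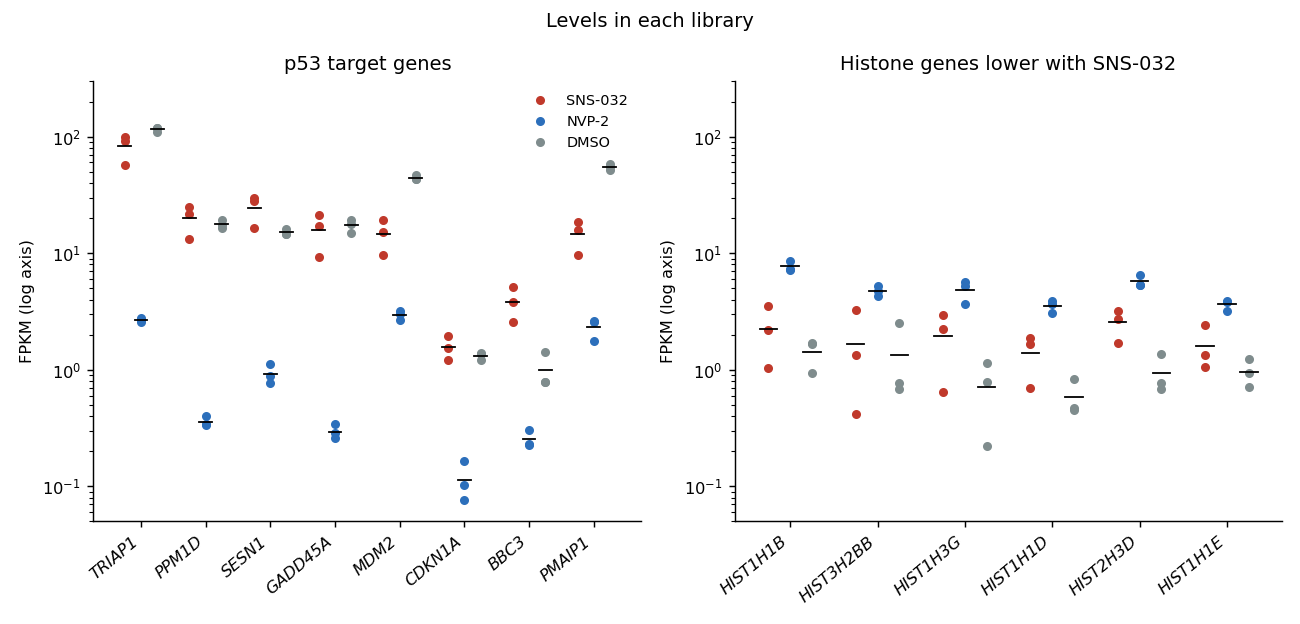
FPKM (log axis) of 8 p53 target genes (left) and 6 histone genes (right) in the SNS-032, NVP-2 and DMSO libraries; points are libraries and black lines are means of 3. Each p53 target shown, picked with values in view, is higher in every SNS-032 library than in any NVP-2 library. Each of these histone genes, which were picked for being lower, is the reverse.

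Immediate early genes and stress genes held higher levels with SNS-032 too. Among immediate early genes, 14 of 18 tested were higher on both scales (median difference 1.08), against 26.9% of all genes. ZFP36L2, a factor that destabilises AU-rich mRNA, averaged 113 ± 32.8 FPKM with SNS-032 and 5.80 ± 0.388 FPKM with NVP-2. KLF6 stood at 15.7, 26.3 and 26.4 FPKM with SNS-032, against 4.84, 5.59 and 4.99 FPKM with NVP-2, on either side of its 11 ± 0.708 FPKM in DMSO. The list as a whole lay below DMSO with SNS-032 (median -1.86). There 1 of the 18 tested members was higher and 17 were lower, against 1.54% and 94.6% of all genes. In the heat shock list 16 of 27 genes were higher on both scales, including HSPA8, the constitutive HSP70 (difference 2.67), and DNAJB1 (2.85). For the integrated stress and unfolded protein response the count was 10 of 25, led by DDIT4 (3.95), an inhibitor of mTORC1, and XBP1 (1.96). The NF-kB inhibitor gene NFKBIA was higher by 2.71 and the interferon response factor gene IRF1 by 2.85, but 3 of 12 tested NF-kB genes and 2 of 25 interferon-stimulated genes were higher on both scales, the first near the share of all genes and the second below it.

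RNA processing factors included several of the widest gaps. NXT1, a cofactor of the mRNA export receptor, stood at 30.7, 71.2 and 46.8 FPKM with SNS-032, against 0.251, 0.257 and 0.251 FPKM with NVP-2 (difference 5.25, adjusted p = 1.13e-09). YTHDF1, a reader of methylated adenosine in mRNA, averaged 109 ± 31.0 FPKM with SNS-032 and 2.96 ± 0.486 FPKM with NVP-2, and 114 ± 9.47 FPKM with DMSO. The splicing kinase CLK1 and the spliceosome protein SF3B4 were higher by 4.28 and 4.26, and CLK3 by 3.59. CSTF1, CLP1 and PCF11 of the 3′ end processing machinery were higher by 4.15, 3.92 and 3.78. SLBP, the protein that binds the stem-loop of histone mRNA, was higher by 3.30. Yet 14 of 37 genes of Integrator and 3′ end processing, 26 of 63 core spliceosome genes and 14 of 36 genes of SR proteins, hnRNPs and splicing kinases were higher on both scales, against 26.9% of all genes.

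Ribosome assembly genes and ribosomal protein genes differed in how far they stood above the general shift. BRIX1, an assembly factor of the large ribosomal subunit, stood at 39, 70.1 and 64.1 FPKM with SNS-032, against 0.794, 0.799 and 0.751 FPKM with NVP-2 (difference 5.0, adjusted p = 5.61e-10). NOP16, a nucleolar protein, was higher by 4.35. In the ribosome biogenesis list 33 of 55 genes were higher on both scales, against 26.9% of all genes, with a median of 0.48 after centring. Of 82 cytosolic ribosomal protein genes 78 were higher as deposited (51 to 82 when 1 library was left out), against 52.6% of all genes, but 6 on both scales, led by RPL36AL (1.99). After centring 41 of the 82 were lower, against 56.1% of all genes. NPM1, an abundant nucleolar chaperone, averaged 846 ± 236 FPKM with SNS-032 and 412 ± 42.3 FPKM with NVP-2, a difference of 1.00 that was 0.0066 and not called after centring. Mitochondrial ribosomal proteins were higher on both scales for 34 of 76 genes, among them MRPL44 (4.23), against 5 of 76 for the respiratory chain, where UQCRFS1 of complex III (3.68) was the widest. Among 37 proteasome genes 17 were higher on both scales, with PSMD7 at 3.33. No gene of 17 for HLA class I and peptide loading was higher on both scales, although 9 were as deposited, near the 52.6% of all genes, a count that ran from 1 to 17 when 1 library was left out. After centring 16 of the 17 were lower.

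**Figure D5:**
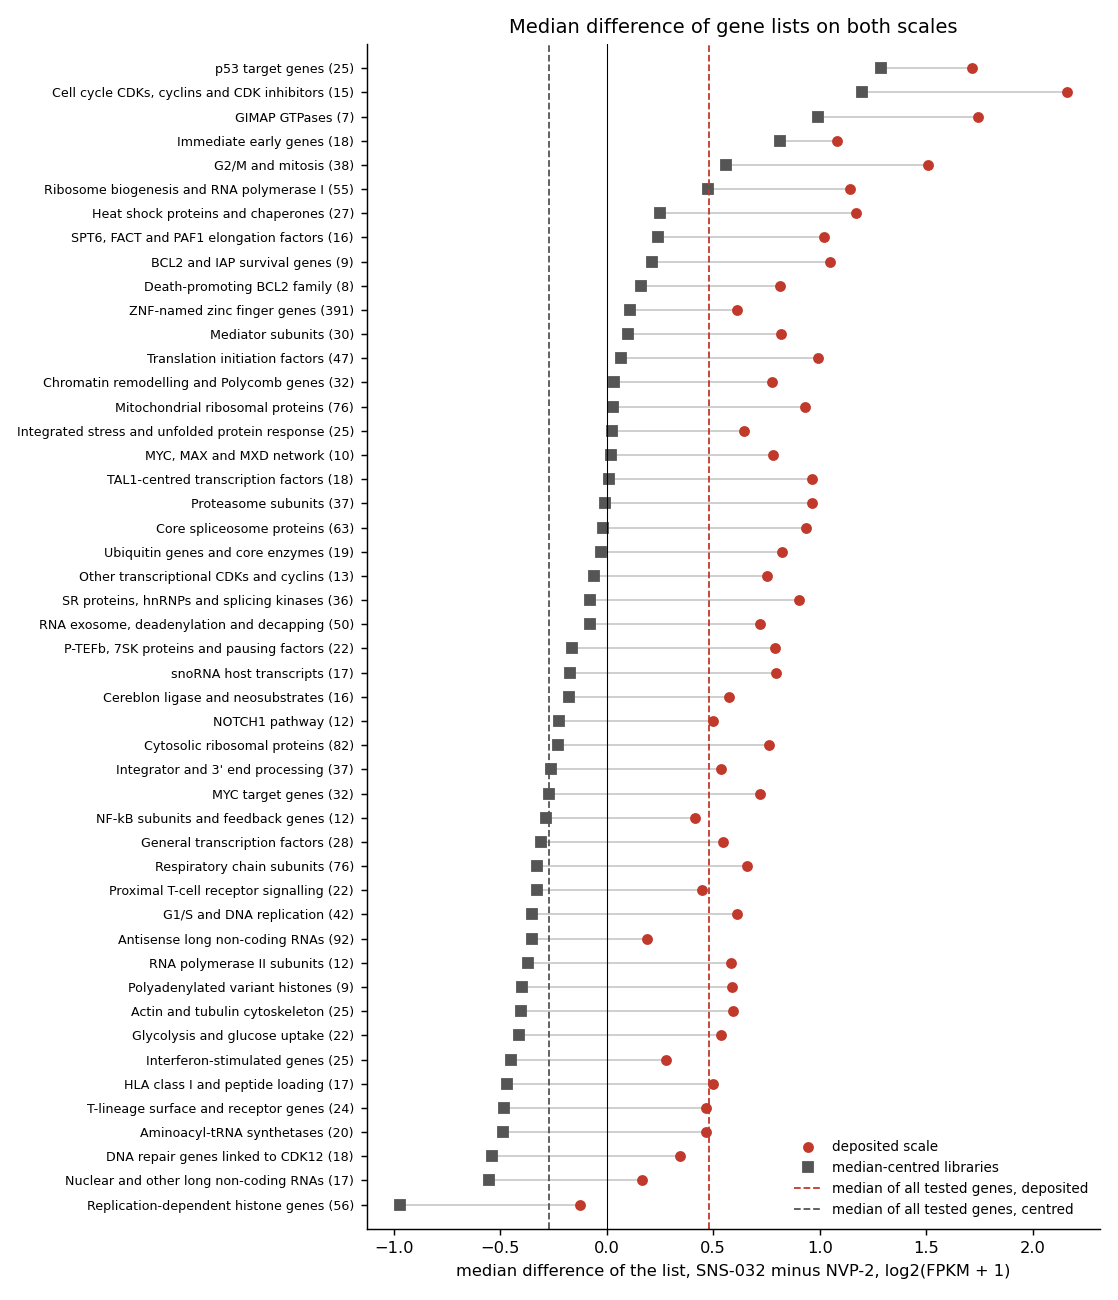
Median difference, SNS-032 minus NVP-2 on the log2(FPKM + 1) scale, of gene lists with 5 or more tested members (number in brackets; short RNA lists left out), as deposited (circles) and after median centring (squares). Dashed lines mark the median of all tested genes (0.48 and -0.27); cell cycle CDKs and cyclins lie highest as deposited and p53 targets after centring, and replication-dependent histone genes lie lowest on both scales.

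Zinc finger genes and single genes outside the lists completed the upper end. Of 391 tested genes with ZNF names 186 were higher on both scales and 2 were lower, against 26.9% and 0.782% of all genes. ZNF211 stood at 49.6, 83.8 and 81.8 FPKM with SNS-032, against 2.10, 2.76 and 2.32 FPKM with NVP-2 (difference 4.39), and at 23.7 ± 2.69 FPKM with DMSO, which the SNS-032 libraries exceeded (1.52, adjusted p = 2.07e-06). ZNF622 and ZNF263 were higher than with NVP-2 by 4.09 each. C12orf44 (ATG101), a subunit of the kinase complex that starts autophagy, stood at 26.1, 50.5 and 43.1 FPKM with SNS-032, against 0.157, 0.182 and 0.165 FPKM with NVP-2 (difference 5.08). MAD2L1BP, which shuts off the spindle checkpoint, was higher by 4.21. RASL11A, a small GTPase gene, was above DMSO (1.26 ± 0.436 FPKM) with both compounds, at 26 ± 6.6 FPKM with SNS-032 and 7.07 ± 0.531 FPKM with NVP-2 (difference 1.71, adjusted p = 3.99e-06).

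Replication-dependent histone genes had the lowest median of the lists with 5 or more tested members. Their mRNAs normally end in a stem-loop rather than a poly(A) tail, so a poly(A) library holds only a part of them. Of 56 tested members 10 were lower and 2 higher on both scales, against backgrounds of 0.782% and 26.9%; the lower count was 8 to 14 when 1 library was left out. The linker histone gene HIST1H1B stood at 1.03, 3.51 and 2.19 FPKM with SNS-032, against 7.33, 8.6 and 7.13 FPKM with NVP-2, and at 1.43 ± 0.430 FPKM with DMSO. The difference was -1.49 (SE 0.24, adjusted p = 0.000110) and -2.51 after centring. NVP-2 thus lay above DMSO (1.85, adjusted p = 2.00e-06), and SNS-032 did not pass that test (0.36, adjusted p = 0.162). HIST3H2BB differed by -1.24, HIST1H3G by -1.07, HIST1H1D and HIST2H3D by -0.95 each and HIST1H1E by -0.87. On the deposited scale alone 7 members were higher and 10 lower, against 52.6% and 0.782% of all genes. The median of the list was -0.13 as deposited and -0.97 after centring. Without SNS-032 replicate 1 the deposited median turned to 0.12 and the centred median was -0.94. As deposited, 12 members were then higher and 8 lower, against 81.6% and 0.756% of all genes. Many histone genes are near-identical copies, so the split of reads among them is uncertain. HIST1H2BK went the other way, at 20.5 ± 6.71 FPKM with SNS-032 and 7.33 ± 1.28 FPKM with NVP-2 (difference 1.33), as did the polyadenylated variant histone H3F3B (2.14).

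Promoters of HIST1H1B, HIST1H3G and HIST1H1D are shown in the same way, because these are lower histone genes with a RefSeq start. They lie at chr6:27867589-27867838 (minus strand), chr6:26271414-26271663 (minus strand) and chr6:26234988-26235237 (minus strand).
HIST1H1B promoter: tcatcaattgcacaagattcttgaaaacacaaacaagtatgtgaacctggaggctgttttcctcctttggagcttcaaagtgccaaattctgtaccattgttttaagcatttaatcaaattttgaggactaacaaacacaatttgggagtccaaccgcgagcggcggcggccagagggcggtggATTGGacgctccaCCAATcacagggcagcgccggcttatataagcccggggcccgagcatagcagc
HIST1H3G promoter: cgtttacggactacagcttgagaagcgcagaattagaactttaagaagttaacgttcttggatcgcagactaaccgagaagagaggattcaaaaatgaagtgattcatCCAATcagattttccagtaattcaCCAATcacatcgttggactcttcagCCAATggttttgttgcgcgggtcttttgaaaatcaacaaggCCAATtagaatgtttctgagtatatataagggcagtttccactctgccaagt
HIST1H1D promoter: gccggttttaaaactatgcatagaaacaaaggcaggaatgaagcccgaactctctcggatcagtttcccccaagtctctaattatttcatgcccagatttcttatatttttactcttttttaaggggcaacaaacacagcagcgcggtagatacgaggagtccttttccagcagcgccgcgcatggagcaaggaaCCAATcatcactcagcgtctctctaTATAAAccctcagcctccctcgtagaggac
HIST1H1B held CCAAT matches 66 and 53 bases before the start and HIST1H3G 4 of them, at 142, 118, 93 and 52 bases. HIST1H1D held CCAAT 55 bases and TATAAA 30 bases before the start. All 7 lower histone genes with a promoter in the table held CCAAT, and so did 38 of the 45 tested histone genes that had one, against 36.5% of the tested genes.

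Other lower genes had small differences at modest levels. C20orf112 (NOL4L) stood at 1.22, 2.07 and 2.53 FPKM with SNS-032, against 4.36, 4.88 and 4.96 FPKM with NVP-2 (difference -0.99, adjusted p = 0.000131). PLAUR, the urokinase receptor, differed by -0.79 (1.47 ± 0.533 FPKM with SNS-032, 3.21 ± 0.242 FPKM with NVP-2). CHKB, a choline kinase, stood at 7.55, 12 and 13.2 FPKM with SNS-032, against 17.6, 20.01 and 17.8 FPKM with NVP-2 (difference -0.74, adjusted p = 0.00396), and UPK3BL differed by -0.74 as well. These 4 genes were named from called genes whose libraries do not overlap, so their lack of overlap follows from the choice. Of all tested genes, 1.28% were lower without overlap. CHKB shares an annotated readthrough transcript with its neighbour, so its reads may be split. Across all genes, 14 were lower by 2-fold or more.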

How the data were processed

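RNA of 12 MOLT4 libraries was measured in 1 table. The authors deposited FPKM per gene. Reads were aligned with HISAT to hg19 and FPKM computed with Cufflinks 2.0.0, per the submitters' processing notes; the annotation and the scaling step are not given in the sources used here. Spike-in RNA, poly(A) selection and a stranded kit are per the labels' protocols. Nothing in the labels states that replicates were separate cultures, and p-values therefore cover library-to-library spread alone, which may be technical.

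Of 23713 entries, 92 ERCC entries and 2 repeated names were left out, and the 11379 genes averaging at least 1 FPKM were tested. Values were used as log2(FPKM + 1). One limma 3.58.1 fit with trend in R 4.3.3 over the 4 groups, with 8 residual degrees of freedom, gave the two-sided contrast SNS-032 minus NVP-2; other contrasts printed are from the same fit. For centring, the FPKM of each library were multiplied to 1 common median of the tested genes before the pseudocount was added. The test was checked on simulated data with noise drawn separately for each gene and library. The simulation held no shift common to a whole library, so it could not check the effect of SNS-032 replicate 1. Promoter sequences are from RefSeq (GRCh38.p14) and spans from GENCODE release 29; older symbols were matched by synonym. No coordinates of the files' build are given. Python 3.11.15 and matplotlib 3.10.9 drew the figures.

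Members, lists and tests were chosen with earlier results of these data known, and some genes are in several lists. Named genes come from a rule: the 12 largest differences each way among called genes whose libraries do not overlap (10 after centring), short RNAs and unnamed loci left out; per list, the 4 largest called and the 2 highest expressed; the 10 highest expressed within 2-fold; and a set of 20 regulators and leukemia genes. Those printed were chosen among them with values in view, and some named by the rule are not reported here. Outside the rule are MEPCE, EAF2, HHEX and RRM2, the lower members of their lists, and CDKN1A and MDM2. Alternatives were another pseudocount, filter, scaling or limma setting, the 6 libraries alone, a replicate block, a fold minimum, and each library left out. The count on both scales was chosen after seeing the data. With a library left out, the pooled spread of all groups was used. C/D and H/ACA box RNAs and microRNA precursors gave erratic values and are not described.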

Additional observations from a re-analysis of the deposited data

How the results depend on the processing

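With 1 library left out, 2954 to 3054 genes were higher on both scales (3057 with all libraries) and 56 to 128 lower (89). On the deposited scale, 4553 to 9290 genes were higher and 56 to 128 lower. Asking for 2-fold left 2619 higher and 14 lower. Higher and lower genes numbered 3059 and 6384 after median centring, 3310 and 6135 after quantile normalization, 3034 and 6337 after centring with the replicate block, and 3017 and 6211 for centred libraries less SNS-032 replicate 1. Lower genes numbered 59 with a mean of 5 FPKM and 30 with equal ERCC medians. Genes within 2-fold numbered 2917 at a bound of 1.5-fold, 18611 with no filter and 3930 with a mean of 5 FPKM. The difference in library median was 0.186 with no filter, 0.640 to 1.01 when 1 library of the pair was left out, and 0 by construction after centring or quantile normalization.

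Several named genes changed sign with scaling. In the order median-centred, quantile-normalized, centred without SNS-032 replicate 1, centred with the block, the values were -0.30, -0.28, -0.28 and -0.30 for CDK12, -0.36, -0.36, -0.35 and -0.36 for POLR2A, -0.060, -0.028, -0.046 and -0.060 for TAL1, -0.41, -0.38, -0.42 and -0.41 for NOTCH1, and -0.50, -0.34, -0.50 and -0.50 for CDK2. Of 104 named genes, CDK12, POLR2A, NOTCH1, MEPCE, EAF2 and RRM2 also lost their calls with equal ERCC medians or with the 6 libraries alone, and HHEX with equal ERCC medians. With no filter on low values 4 named genes lost their calls. CDK12, POLR2A and NOTCH1 were among them (limma adjusted p = 0.0501, 0.0695 and 0.0717). A pseudocount of 5 ended 2 calls, including that of NOTCH1 (limma adjusted p = 0.0526). HEXIM1 ran between -0.21 and 0.12 when 1 library was left out, with 0.12 without SNS-032 replicate 1. Scaling itself moves these values; no other cause was tested. Whether replicate numbers pair the libraries is not known. Deviations of same-numbered SNS-032 and NVP-2 libraries correlated at -0.151, 0.17 and 0.0925 on the deposited scale, and values from so few libraries cannot settle it. A fit with the replicate block called 6693 genes higher and 123 lower and put 6978 within 2-fold. The 6 libraries alone gave 4783 higher, 78 lower and 5492 within 2-fold, and equal ERCC medians gave 5047, 30 and 5008. CDK2 (0.48) was called with the block (adjusted p = 0.0174), without trend (0.0484), with robust (0.0450) and with short RNAs left out (0.0449); over its alternatives on the deposited scale the adjusted p ran between 6.76e-05 and 0.242. List medians were above 0 for 49 of 50 lists as deposited, for all 50, the histone list included, without SNS-032 replicate 1 or with a mean of 5 FPKM, and for 19 after centring. Unknown depth limits low genes most, those under 1 FPKM with NVP-2.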
